A study of Mus musculus with 8 samples.

Results

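The genes described here work in the endoplasmic reticulum (ER), the compartment where secreted and membrane proteins are made. They are 42 mouse genes: 15 that fold proteins in the ER lumen, 7 that remove misfolded proteins, 4 that sense or transmit ER stress, 9 that carry new proteins across the ER membrane, and 7 that form the coat of the vesicles leaving it. They were taken by gene symbol, with no measured value in the rule, though earlier results of these data were known when the list was chosen. Of the 20690 array features annotated with a gene, 44 read these 42 genes, out of 19321 genes on the array. Dnajc3 and Sec24a had 2 probes each, which were kept apart. The test held 43 probes of 41 members, all of them above the limit set by the blank spots on every array. The probe of Ern1 lay above that limit on 1 array only and was not tested.

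The study gave mice trehalose, a disaccharide of glucose, in their drink. Brain RNA was measured on 8 one-colour arrays, 1 array for each male C57Bl/6J mouse, all 9 weeks old: 2 controls that had water (day 0), 3 mice with trehalose for 1 day and 3 with trehalose for 10 days. All mice were fasted and perfused with heparin before the tissue was frozen. The labels name cerebral cortex and neocortex while the design text names the left hemisphere, so the dissection is not settled. No water mice were sampled at day 1 or day 10, so trehalose and the time of sampling cannot be told apart. Mice were caged in groups of 3, and which animals shared a cage was not stated in the sources used here. The tissue is bulk, in which fewer cells of a type and less RNA per cell cannot be told apart.

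A protein bound for the ER passes its membrane through the Sec61 channel, loses its signal sequence to signal peptidase, and is then folded by lumenal chaperones and disulfide isomerases. When unfolded protein builds up, the sensors Ire1 (gene Ern1), Perk (gene Eif2ak3) and Atf6 release Hspa5 (BiP) and start the unfolded protein response. Its transcription factors, cleaved Atf6 and spliced Xbp1, raise chaperone and degradation genes, and proteins that pass quality control leave in COPII vesicles. Neurons use the route for receptors, channels, adhesion molecules and neuropeptides.

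Cleaved Atf6 with its partner NF-Y acts through the ER stress response element (ERSE), the classical element of this response. Its exact letters are shown for the members whose listed window held them, and near matches were not counted. The letters searched were CCAAT, 9 bases of any kind, then CCACG, on both strands of the RefSeq promoter windows of build GRCm38.p6, from 250 bases before to 50 bases after the start. A window was listed for 35 of the 42 members. Not listed were Hyou1, Manf, Derl1, Atf6, Sec61a1, Spcs3 and Ssr2. Of the 35 members, 9 held a match (25.7%), against 37 of 27025 genes with a window (0.137%). Counted over windows, 39 of 32851 of the same length held one (0.119%). The matches are given below 5′ to 3′, each read in the direction of CCAAT, with the fixed letters in capitals.
Hspa5, chr2:34772025-34772043: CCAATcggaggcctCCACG
Hsp90b1 nearer the start, chr10:86705533-86705551: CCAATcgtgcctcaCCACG
Hsp90b1 farther from the start, chr10:86705638-86705656: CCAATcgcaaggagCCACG
Calr, chr8:84847075-84847093: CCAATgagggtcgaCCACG
Canx, chr11:50325800-50325818: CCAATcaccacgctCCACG
Pdia6, chr12:17266491-17266509: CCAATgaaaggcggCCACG
Dnajc3, chr14:118937827-118937845: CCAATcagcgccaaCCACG
Creld2, chr15:88819520-88819538: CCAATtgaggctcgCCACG
Derl3, chr10:75893242-75893260: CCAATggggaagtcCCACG
Syvn1, chr19:6046532-6046550: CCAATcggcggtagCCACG

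All 10 matches lay before the start, from 212 bases at the farthest (Hsp90b1) to 26 bases at the nearest (Syvn1). Hsp90b1 was the member with 2 matches, in opposite directions. Of the 9 genes, 7 act in folding and 2, Derl3 and Syvn1, in degradation. No match was found in the listed windows of the sensor, translocation and COPII members. The second motif, UPRE, the letters TGACGTGG, was in the windows of 2 of 35 members, Sec23a and Sec24d, both of the COPII coat, and in 0.714% of all genes. The CCACG letters alone, which are part of every ERSE match and whose reverse complement is part of UPRE, were found more widely: this motif was in 28 of 35 members (80%) and in 35.5% of all genes. A match is a description of letters in this window and not evidence of a bound site.

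**Figure D1:**
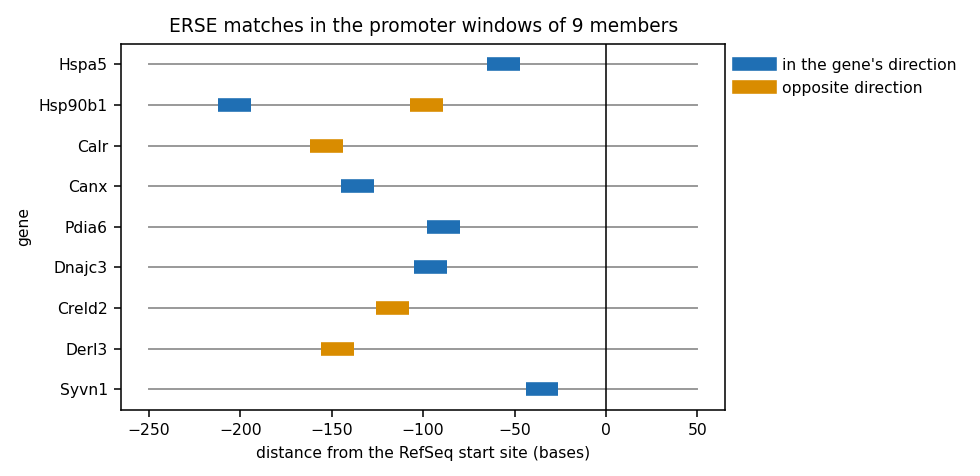
Positions of the ERSE letters in the promoter windows of 9 members, with distance from the RefSeq start site in bases on the x axis and 1 gene per line; blue boxes read in the gene's direction and orange boxes in the opposite one. Each of the 10 boxes lies before the start, and Hsp90b1 has 2.

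The stretches of 160 bases before the start are shown for the widely used markers of the response, Hspa5 and Hsp90b1, for Pdia6, whose value was lower after 1 day, and for Spcs1 and Sec24b, the members with the lowest p after 10 days. Capitals mark an ERSE match. On the gene strand that of Hsp90b1 appears as its reverse complement, and the windows of Spcs1 and Sec24b hold no match.
Hspa5, chr2:34771930-34772089, plus strand: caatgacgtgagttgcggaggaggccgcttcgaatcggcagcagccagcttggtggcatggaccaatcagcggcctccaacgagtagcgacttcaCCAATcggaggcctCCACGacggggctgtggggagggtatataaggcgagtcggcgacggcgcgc
Hsp90b1, chr10:86705445-86705604, minus strand: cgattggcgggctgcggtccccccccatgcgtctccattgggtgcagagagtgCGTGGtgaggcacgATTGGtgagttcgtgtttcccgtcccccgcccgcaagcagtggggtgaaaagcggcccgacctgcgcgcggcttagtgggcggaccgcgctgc
Pdia6, chr12:17266429-17266588, plus strand: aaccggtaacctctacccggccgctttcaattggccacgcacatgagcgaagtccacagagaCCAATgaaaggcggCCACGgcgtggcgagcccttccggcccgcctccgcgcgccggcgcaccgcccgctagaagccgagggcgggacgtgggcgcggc
Spcs1, chr14:31001667-31001826, minus strand: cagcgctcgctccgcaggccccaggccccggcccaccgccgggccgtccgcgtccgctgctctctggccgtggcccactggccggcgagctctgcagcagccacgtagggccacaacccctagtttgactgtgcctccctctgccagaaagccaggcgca
Sec24b, chr3:130060908-130061067, minus strand: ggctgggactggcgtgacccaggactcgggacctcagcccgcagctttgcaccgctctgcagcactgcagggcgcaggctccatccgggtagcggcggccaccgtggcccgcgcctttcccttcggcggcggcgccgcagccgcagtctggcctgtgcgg

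The arrays were alike, with Pearson's r between 0.994 and 0.998 for log2 intensity over 21583 tested probes, which are not independent replicates. All 6 neuron markers and all 5 cortex markers on the array lay above the blank limit on every array, so none of these was absent. Summed linear intensity of the 5 cortex markers was 3747 to 3843 in control, 3516 to 3704 after 1 day and 3255 to 3513 after 10 days. Nrgn made up most of this sum. Of the 5 markers 4 had a lower mean than control at each time. Neurod6 went the other way, with log2 means of 7.66 in control, 7.71 after 1 day and 7.71 after 10 days. The sum of 7 thalamus marker probes was 2167 to 2445 in control, 2521 to 3388 after 1 day and 2655 to 3039 after 10 days. In this sum too, neither trehalose group overlapped with control. The probe of Tcf7l2, a further thalamus marker, was above the blank limit on 0 arrays and was left out. Lef1, among the 7, had log2 means of 6.15 in control, 6.14 after 1 day and 6.15 after 10 days. Microglia markers (6 probes) summed to 2871 to 2875 in control, 2617 to 2897 after 1 day and 2753 to 2805 after 10 days, the last without overlap and with 5 of 6 markers lower. All 5 choroid plexus markers had a higher mean after 10 days than in control, with sums of 30099 to 30129 against 25700 to 30101. These sums are nearly all Ttr, at log2 14.62 and 14.85 in the controls and 14.85 on each 10-day array. Trehalose 1 day replicate 2 stood apart. It had the lowest value of all 4 striatum markers (median deviation -0.86 from the probe means, log2). It had the highest value of all 5 choroid plexus markers (median deviation 0.35) and of 6 of the 7 thalamus probes (0.14). The part of these marker differences in the results on ER genes was not tested.

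The question put to the ER genes was whether 1 or 10 days of trehalose came with a different level of the machinery that folds, clears and exports proteins. In the limma fit with Benjamini-Hochberg adjustment over all 21583 probes, 0 of 43 member probes passed an adjusted p of 0.05 in any of the 4 comparisons, and the adjusted p was 1.0 for each of them. Over all probes 0% passed as well. Differences of members were small in this fit. Across the 8 arrays a member probe ranged by 0.098 to 0.58 on the log2 scale, with a median of 0.30 and the widest range in the second Dnajc3 probe. The 95% interval of every member probe stayed within 0.58 in each comparison, the farthest bound being 0.50 for Sec61b after 1 day. This bound depends on the processing. With the local background column subtracted, the 1-day change was 2.68 for Sec61b and -1.66 for Pdia6. At an unadjusted p under 0.05 in any comparison there were 8 members: Hspa5, Hsp90b1, Pdia6, Derl3, Eif2ak3, Sec61b, Spcs1 and Sec24b.

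After 1 day the members were evenly split around the controls. Of 43 probes, 22 were higher and 21 lower, against 49.7% higher among all probes, with a median log2 change of 0.013 where that of all probes was -0.00030. At an unadjusted p under 0.05, 4 were higher (Hsp90b1, Sec61b, Spcs1, Sec24b) and 1 lower (Pdia6), against 2.02% and 1.62% of all probes. Every 1-day array was above both controls for 9 member probes and below both for 3, against 8.97% and 9.19% of all probes. The members above were Hspa5, Hsp90b1, Pdia4, Derl3, Eif2ak3, Sec61b, Spcs1, Ssr2 and Sec24b, and those below Pdia6, Syvn1 and the first Sec24a probe. The median turned negative in the authors' deposited table (-0.041, with 15 probes higher), where the median of all probes was -0.055, and with the replicate number as a block (-0.0014). Without trehalose 1 day replicate 2 it was 0.034, with 24 probes higher, and without control replicate 1 or trehalose 1 day replicate 1 it was 0.0032 or 0.0025. The 4 became 2 without control replicate 2 or without trehalose 1 day replicate 1 or 2. With the local background column subtracted, 3 were higher and 4 lower at that p, and the authors' deposited table gave 0 higher and 1 lower.

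After 10 days more members lay above the controls than below. Of 43 probes, 31 were higher and 12 lower, against 48.6% higher among all probes. The count was 26 without trehalose 10 days replicate 3 and 27 without control replicate 1, and 24 with the local background column subtracted. The median log2 change was 0.043, or 0.032 without control replicate 1, and that of all probes was -0.0017. At an unadjusted p under 0.05, 6 were higher (Hspa5, Hsp90b1, Derl3, Sec61b, Spcs1, Sec24b) and 0 lower, against 1.23% and 0.774% of all probes. The 6 became 2 without control replicate 2, and 3 without control replicate 1, trehalose 1 day replicate 2 or trehalose 10 days replicate 2. The 0 lower became 2 without trehalose 10 days replicate 3, and with the local background column subtracted 3 were higher and 3 lower. Every 10-day array was above both controls for 7 member probes, these 6 and Creld2, and below both for 0, against 6.46% and 6.97% of all probes. The comparisons at 1 and 10 days share the 2 control arrays, so their values stand side by side and are not independent.

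Between the times, 27 probes were higher after 10 days and 16 lower, against 48.6% higher among all probes. The median log2 difference was 0.042 beside -0.0015 for all probes. The arrays compared here also enter the comparisons with control, so these values are not independent of those. The authors' deposited table gave 36 higher with a median of 0.15, where 73.9% of all probes were higher. At an unadjusted p under 0.05, 2 members were higher after 10 days (Pdia6, Sec24b) and 1 lower (Eif2ak3), against 1.85% and 1.65% of all probes. The 2 became 5 without trehalose 1 day replicate 3 or without trehalose 10 days replicate 1 or 3, and 3 without the remaining 10-day array; the 1 lower became 0 to 2. For these 2 and this 1 the groups did not overlap, against 4% and 4.39% of all probes. With both trehalose groups set against control, 27 probes were higher and 16 lower, against 48.6% higher among all probes. The median was 0.021 beside -0.0017. At an unadjusted p under 0.05, 4 members were higher (Hsp90b1, Sec61b, Spcs1, Sec24b) and 1 lower (Pdia6), against 1.67% and 0.964% of all probes. The 4 became 2 without control replicate 2. With the local background column subtracted 4 were higher and 3 lower, and the authors' deposited table gave 1 higher and 0 lower. All 6 trehalose arrays were above both controls for 6 members (Hspa5, Hsp90b1, Derl3, Sec61b, Spcs1, Sec24b) and below both for 0, against 2.75% and 1.98% of all probes.

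**Figure D2:**
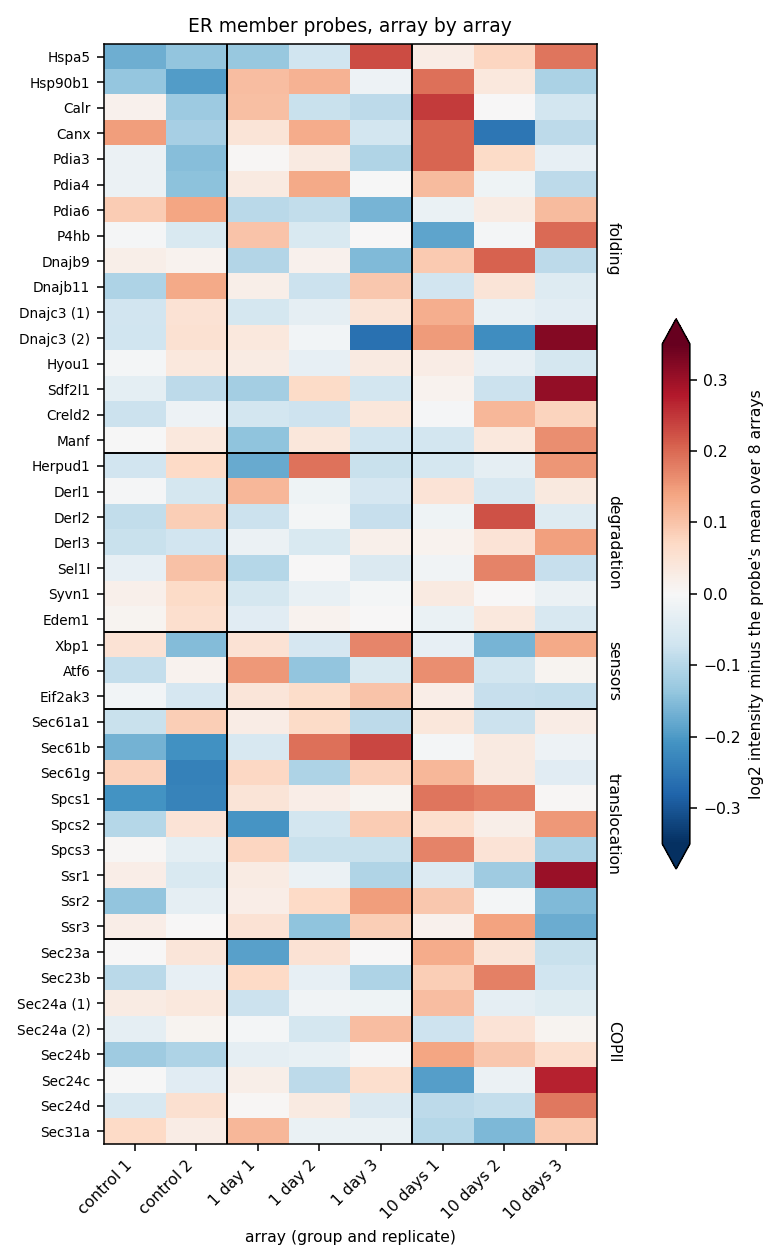
Log2 intensity of each of the 43 tested member probes (rows, by role) on each of the 8 arrays (columns, by group and replicate), minus the probe's mean over the 8 arrays; red is above and blue below that mean. Rows such as Spcs1, Sec24b and Sec61b are blue in both controls, and most rows mix both colours within a group.

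No array carried the whole set up or down. The median deviation of the 43 probes from their own means was between -0.021 and 0.027 on the 8 arrays. Trehalose 10 days replicate 1 held the highest value for 12 probes, replicate 3 for 9 and replicate 2 for 6. In the 1-day group replicates 1, 2 and 3 held the highest value for 2, 2 and 6 probes. They held the lowest for 8, 1 and 5, and the 10-day replicates 1, 2 and 3 for 4, 4 and 6. Control replicate 1 was the highest for 0 probes and the lowest for 7, while control replicate 2 was the highest for 6 and the lowest for 8. The 2 controls thus differed from each other in how often they lay at the top. Such counts were not made over all tested probes.

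Folding genes came first in number. Of their 16 probes, 9 were higher after 1 day and 12 after 10 days, with medians of 0.017 and 0.068 on the log2 scale. The 10-day median kept its sign under all settings tried, while that at 1 day turned to -0.032 in the authors' deposited table and to -0.0050 with the replicate block. Between the times 10 of 16 were higher after 10 days, with a median of 0.085, which turned to -0.052 with 5 higher when the local background column was subtracted.

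Hspa5 encodes BiP, the Hsp70 chaperone of the ER lumen that also holds the stress sensors inactive. Its log2 intensity was 11.15 and 11.18 in the controls, 11.19, 11.25 and 11.55 after 1 day, and 11.35, 11.39 and 11.51 after 10 days. All 6 trehalose arrays were above both controls, and 1-day replicate 3 was the highest array of all. The log2 change was 0.25 (SE 0.10, limma unadjusted p = 0.0413, adjusted p = 1.0) after 10 days, or 1.19-fold, with a 95% interval from 0.013 to 0.49. After 1 day it was 0.16 (SE 0.10), and 0.053 without 1-day replicate 3. The 10-day change was 0.12 when the local background column was subtracted. Trehalose 1 day replicate 2 is no part of the 10-day change, so leaving it out could alter only the estimated spread (limma unadjusted p = 0.0504).

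Hsp90b1 encodes Grp94, the Hsp90 of the ER. It measured 11.48 and 11.42 in the controls, 11.73, 11.74 and 11.60 after 1 day, and 11.81, 11.66 and 11.51 after 10 days. Both controls were below every trehalose array, and 10-day replicate 3 was the trehalose array nearest to them. Its change was 0.24 (SE 0.09, limma unadjusted p = 0.0264) after 1 day and 0.21 (SE 0.09, unadjusted p = 0.0453) after 10 days, both with an adjusted p of 1.0. The 2 times differed by -0.03, with an interval from -0.21 to 0.15. Without trehalose 10 days replicate 1 the later change was 0.13. Without trehalose 1 day replicate 2 the 1-day change was 0.21 (limma unadjusted p = 0.0725). The 10-day change does not use that array, so only its p could move (limma unadjusted p = 0.0589).

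Pdia6, a protein disulfide isomerase that also binds the sensor Ire1, was the member with the largest value below control. Its log2 intensity was 10.33 and 10.38 in the controls, 10.15, 10.16 and 10.08 after 1 day, and 10.22, 10.27 and 10.36 after 10 days. The 1-day arrays lay below all the others, and the 10-day arrays overlapped with control. The change was -0.23 (SE 0.05, limma unadjusted p = 0.0020, adjusted p = 1.0) after 1 day and -0.074 (SE 0.05) after 10 days, or -1.66 and -1.75 with the local background column subtracted. The 10-day level was 0.15 above that of 1 day (SE 0.04, unadjusted p = 0.0091, adjusted p = 1.0), a difference whose sign turned to -0.091 under that subtraction. Without trehalose 1 day replicate 2 the first of these was -0.24.

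Pdia4, another disulfide isomerase of the response, measured 7.45 and 7.32 in the controls, 7.50, 7.60 and 7.46 after 1 day, and 7.58, 7.45 and 7.37 after 10 days. The 1-day arrays were just above both controls and the 10-day arrays overlapped with them. Its changes were 0.14 and 0.083 (SE 0.07 each, limma adjusted p = 1.0). Calreticulin (Calr), a lectin chaperone of glycoproteins, measured 7.86 and 7.72 in the controls, 7.95, 7.77 and 7.75 after 1 day, and 8.09, 7.84 and 7.78 after 10 days. All 3 groups overlapped, and 10-day replicate 1 was the highest. Its 10-day change was 0.12 (SE 0.10).

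Of the other folding members, the largest 10-day values were 0.17 for Pdia3 (SE 0.08), the disulfide isomerase that works with calreticulin, and 0.14 for Sdf2l1 (SE 0.11), part of a BiP chaperone complex. Creld2, a secreted ER stress protein, had 0.11 (SE 0.05), and its 10-day arrays, 7.71, 7.82 and 7.79, were above the controls at 7.63 and 7.69. The lowest was Canx, the membrane-bound relative of calreticulin, with -0.063. P4hb, a disulfide isomerase, the Hsp40 proteins Dnajb9 and Dnajb11, the exchange factor Hyou1 and the secreted factor Manf lay between -0.035 and 0.052 after 10 days. Dnajc3, an Hsp40 partner of BiP, had 10-day changes of 0.030 and 0.093 on its 2 probes. After 1 day both were negative, -0.0092 and -0.069, and the second ranged most over the arrays. The interval of that second probe after 10 days ran from -0.27 to 0.45, which covers both directions.

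**Figure D3:**
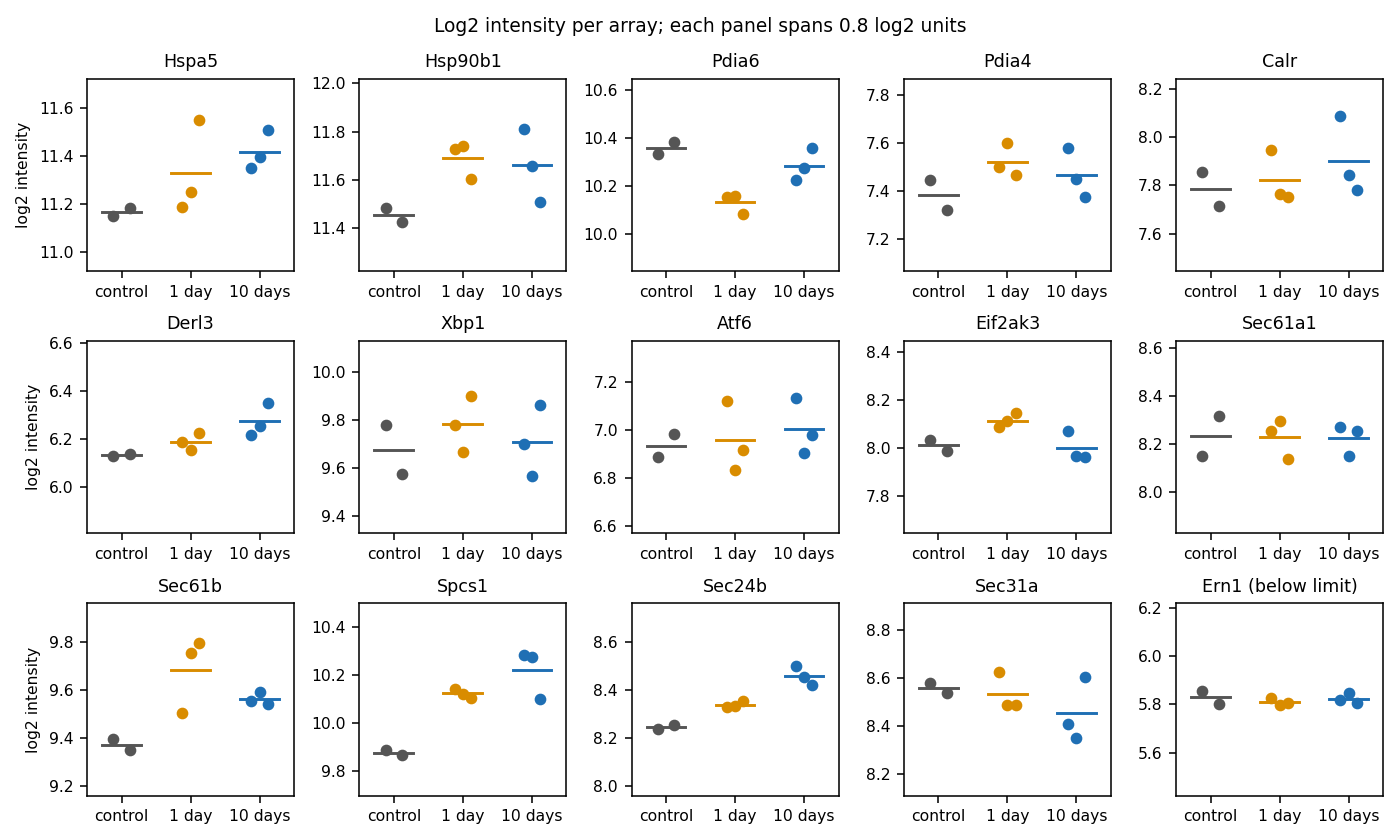
Log2 intensity of 14 tested members and of Ern1, which was below the blank limit, by group; points are single arrays, bars the group means, and each panel spans 0.8 log2 units. Controls lie below every trehalose array for Hspa5, Hsp90b1, Derl3, Sec61b, Spcs1 and Sec24b, and the groups overlap for Calr, Xbp1, Atf6, Sec61a1 and Sec31a.

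Degradation members take misfolded proteins out of the ER to the proteasome. Of 7 probes, 2 were higher after 1 day and 4 after 10 days, though the first count was 4 without control replicate 2 and the second 2 without control replicate 1. Derl3, a derlin of the channel complex, measured 6.13 and 6.14 in the controls, 6.19, 6.15 and 6.22 after 1 day, and 6.22, 6.25 and 6.35 after 10 days. Both controls were below the 6 trehalose arrays. The 10-day change was 0.14 (SE 0.05, limma unadjusted p = 0.0192, adjusted p = 1.0). The probe was dim, at least 1.48 times the blank mean, and the offset added before log2 compresses such a value: the change was 0.26 with an offset of 16, 0.52 after subtraction of the blank mean and 0.54 in the authors' deposited table. At 10 days the remaining 6 ran from -0.049 for Edem1, a mannosidase-like protein that marks glycoproteins for disposal, to 0.055 for Derl2. Syvn1, the Hrd1 ubiquitin ligase, was below both controls on every 1-day array, with a change of -0.074, and its partner Sel1l had -0.086. Herpud1, which is strongly induced by ER stress, had -0.024 and 0.019 after 1 and 10 days.

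Among the sensors, no member showed a difference from control at an unadjusted p under 0.05. Xbp1, whose mRNA Ire1 splices, measured 9.78 and 9.58 in the controls, 9.78, 9.67 and 9.90 after 1 day, and 9.70, 9.56 and 9.86 after 10 days. The 3 groups overlapped. The probe cannot be taken to tell spliced from unspliced Xbp1, since its position in the transcript was not given in the sources used here. Atf6 measured 6.89 and 6.98, then 7.12, 6.83 and 6.92, then 7.13, 6.91 and 6.98 in the same order of groups, again with overlap. Their 10-day changes were 0.032 and 0.072 (SE 0.10 each, limma adjusted p = 1.0).

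Eif2ak3 encodes Perk, the kinase that slows translation under ER stress. It measured 8.03 and 7.99 in the controls, 8.09, 8.11 and 8.15 after 1 day, and 8.07, 7.97 and 7.96 after 10 days. The 1-day arrays were above all the others. The 10-day level was lower than that of 1 day by a log2 difference of -0.12 (SE 0.04, limma unadjusted p = 0.0230, adjusted p = 1.0). It was -0.058 in the authors' deposited table and -0.56 with the local background column subtracted. Without trehalose 1 day replicate 2 it was still -0.12 (limma unadjusted p = 0.0504). Ern1 gave 5.86 and 5.80 in the controls, 5.83, 5.80 and 5.81 after 1 day, and 5.82, 5.85 and 5.81 after 10 days, at 1.05 to 1.18 times the blank mean. Its signal was not well above background, so no change of Ern1 can be read from these arrays.

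Translocation members form the Sec61 channel, the signal peptidase (Spcs) and the translocon-associated protein complex (Ssr). Of 9 probes, 4 were higher after 1 day and 7 after 10 days. The 10-day median was 0.062 and kept its sign under all settings tried. That of 1 day was -0.0038 and turned positive without any 1 of the control or 1-day arrays.

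Spcs1, an accessory subunit of signal peptidase, had the largest 10-day difference of all members. Its log2 intensity was 9.89 and 9.87 in the controls, 10.14, 10.12 and 10.11 after 1 day, and 10.29, 10.27 and 10.10 after 10 days. All trehalose arrays were above both controls by more than the spread within the control or 1-day group. The change was 0.25 (SE 0.06, limma unadjusted p = 0.0030) after 1 day and 0.34 (SE 0.06, unadjusted p = 0.00040) after 10 days, or 1.19-fold and 1.27-fold, with an adjusted p of 1.0 in both. Leaving out any 1 array left the 10-day change between 0.31 and 0.40. With the local background column subtracted it was 0.76, and the 1-day change turned to -0.70. The other signal peptidase members did not follow at 1 day: Spcs2 had -0.036 and 0.10, and Spcs3 -0.012 and 0.052 after 1 and 10 days (limma adjusted p = 1.0).

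Sec61b, the small beta subunit of the channel, measured 9.39 and 9.35 in the controls, 9.50, 9.75 and 9.79 after 1 day, and 9.55, 9.59 and 9.54 after 10 days. Again both controls lay below the 6 trehalose arrays, with 1-day replicates 2 and 3 highest. The change was 0.31 (SE 0.08, limma unadjusted p = 0.0051) after 1 day and 0.19 (SE 0.08, unadjusted p = 0.0471) after 10 days (adjusted p = 1.0 for both). Without trehalose 1 day replicate 2 the first was 0.28. The second does not use that array, so only its p could move (limma unadjusted p = 0.0546). Subtracting the local background column gave 2.68 and 2.47 instead. The gamma subunit, Sec61g, had 0.094 and 0.12 (SE 0.10 each).

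Sec61a1, the pore-forming subunit, measured 8.15 and 8.32 in the controls, 8.25, 8.30 and 8.14 after 1 day, and 8.27, 8.15 and 8.25 after 10 days. The groups overlapped fully, and its changes were -0.0038 and -0.0080 (SE 0.07 each). The interval after 10 days ran from -0.17 to 0.15. Of the Ssr members, Ssr2 had 0.16 after 1 day (SE 0.08, limma unadjusted p = 0.0636), with all 3 arrays above both controls, and 0.062 after 10 days. Ssr1 and Ssr3 had 0.059 and -0.019 after 10 days.

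COPII members form the coat that buds vesicles from the ER: Sec23 and Sec24 make the inner layer, in which Sec24 binds cargo, and Sec31 the outer cage. Of 8 probes, 4 were higher after 1 day and 6 after 10 days, the second count being 3 without control replicate 1. Sec24b measured 8.23 and 8.25 in the controls, 8.33, 8.33 and 8.35 after 1 day, and 8.50, 8.45 and 8.42 after 10 days. It was the member in which none of the 3 groups overlapped, with control lowest and 10 days highest. The change was 0.094 (SE 0.04, limma unadjusted p = 0.0346) after 1 day and 0.21 (SE 0.04, unadjusted p = 0.00047) after 10 days, and the times differed by 0.12 (SE 0.03, unadjusted p = 0.0073), all with an adjusted p of 1.0. Leaving out any 1 array left the 10-day change between 0.19 and 0.23. It was 0.48 with the local background column subtracted. The 1-day change without trehalose 1 day replicate 2 was 0.097 (limma unadjusted p = 0.0625).

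The other cargo adaptors did not share that order. After 10 days Sec24a had -0.021 and 0.0063 on its 2 probes, Sec24c 0.039 and Sec24d 0.0038, with limma adjusted p of 1.0. Sec23b had 0.12 (SE 0.08) and Sec23a 0.011. Sec31a measured 8.58 and 8.54 in the controls, 8.63, 8.49 and 8.49 after 1 day, and 8.41, 8.35 and 8.60 after 10 days. Its groups overlapped, and the 10-day change of -0.10 (SE 0.08) was the lowest of all member probes.

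**Figure D4:**
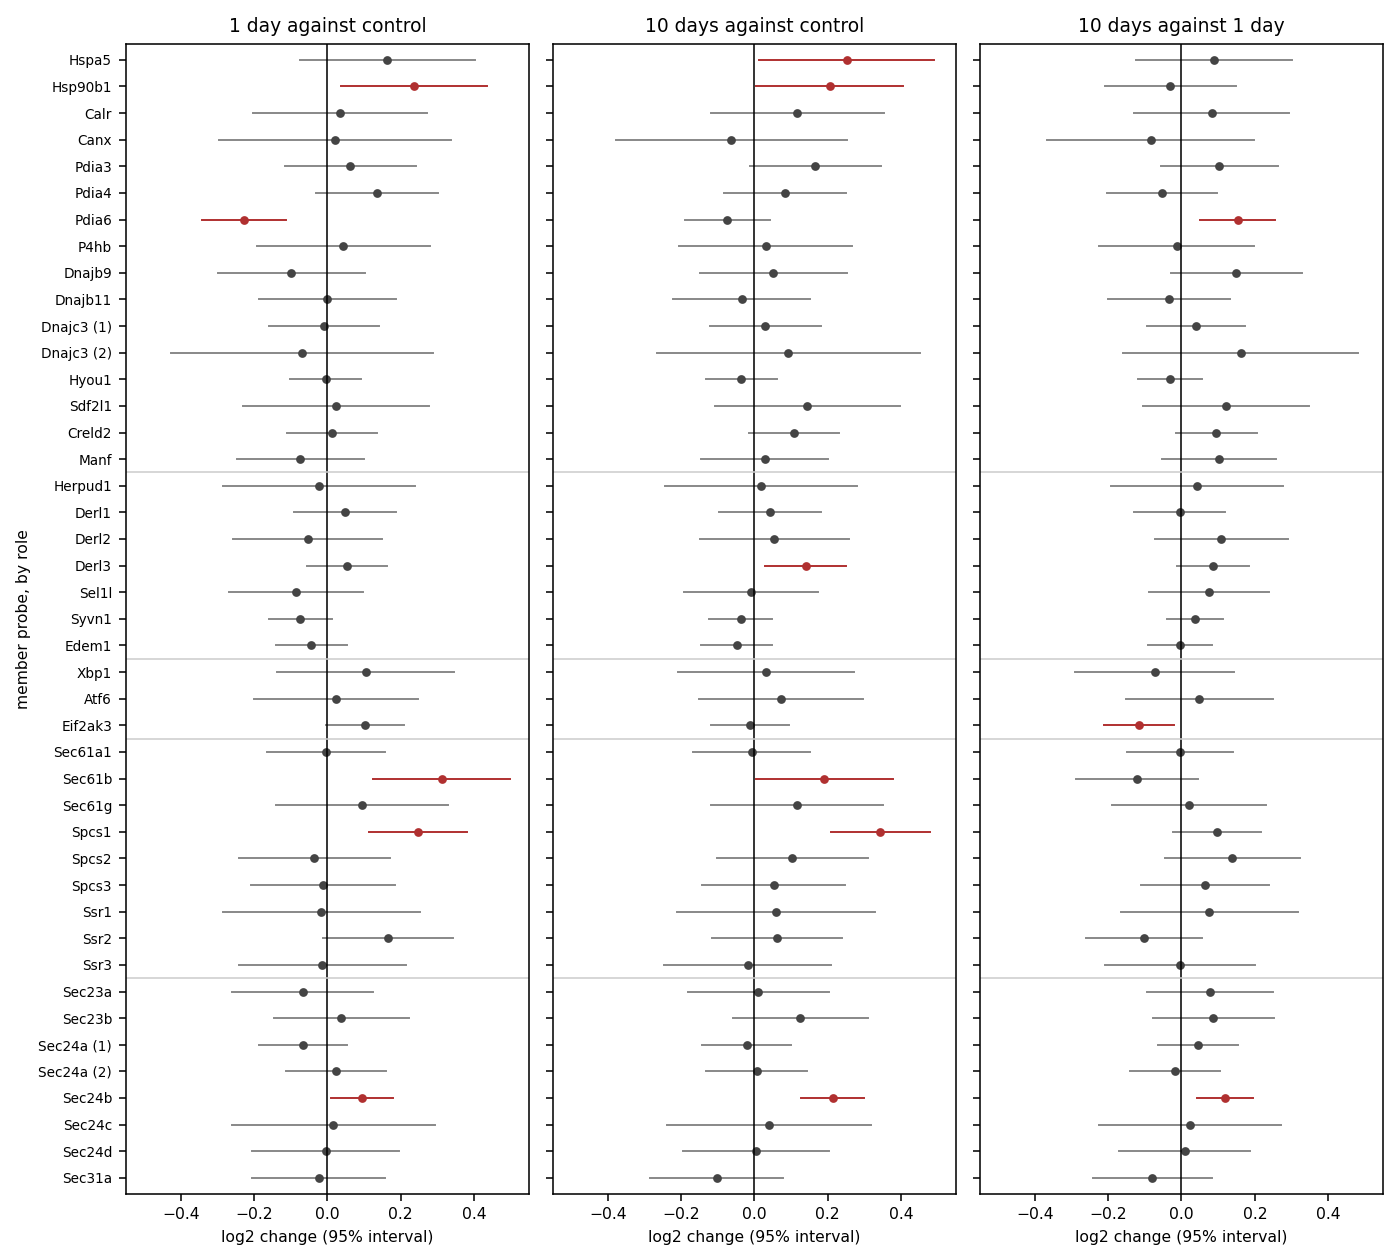
Log2 change of the 43 member probes, ordered by role, in 3 comparisons; points are limma estimates, lines 95% intervals, and red marks an unadjusted p under 0.05. Red points number 5 after 1 day, 6 after 10 days and 3 between the times, and no probe passed after adjustment.

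Members with the ERSE letters shown above were also set beside those whose listed window lacks them. After 10 days 7 of the 10 probes of the 9 genes with the letters were higher, with a median of 0.10, and 19 of the 26 probes whose window lacks them, with a median of 0.035. After 1 day the counts were 6 of 10 and 13 of 26, with medians of 0.017 and 0.0078. The genes with the letters ran from Pdia6 at -0.074 to Hspa5 at 0.25 after 10 days. Both Spcs1 and Sec24b, the members with the lowest p, have windows without them. The difference between these lists was not tested.

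The same roles hold 80 further genes of a list of ER genes, read by 88 tested probes, of which 0 passed by limma with Benjamini-Hochberg adjustment in any comparison (adjusted p = 1.0). After 10 days 51 of these were higher, with a median of 0.0099, 1 was higher and 0 lower at an unadjusted p under 0.05. After 1 day 49 were higher, with a median of 0.0098, and 5 were higher and 5 lower at that p. Sec11c, a catalytic subunit of the same signal peptidase as Spcs1, had 0.24 after 1 day (SE 0.06, limma unadjusted p = 0.0028), with every 1-day array above both controls. Between the times, 7 were higher after 10 days and 2 lower at that p, among them Uggt1, which tags misfolded glycoproteins for another round of folding, at 0.14 (SE 0.04), and Creb3, a transcription factor held in the ER membrane, at -0.10 (SE 0.04). The shares of all probes given above for each comparison are the background of these counts too.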

How the data were processed

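One-colour arrays (Cy5) read the RNA of 8 mouse brains. Per the file headers, each deposited scanner file holds a spot median intensity and a local background intensity. A further deposited table holds the authors' processed intensity for each probe on a linear scale, with its steps not stated. The files used here gave neither slide nor scan date, so no batch by slide or date was tested. The replicate number and the description number were tried in the fit as alternatives only.

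Spot medians were background corrected by normexp (offset 50, fitted to all 27456 spots) in limma 3.58.1 under R 4.3.3. The arrays were then quantile normalized, after 10 spots with a failed flag had been set to missing, and values are log2 intensities. Tested probes had to exceed the blank mean (2736 blank spots) by 2 SD on 2 arrays or more, as 21583 did. On each array 86.3% to 92.0% of probes exceeded it. A single fit of all 8 arrays in 3 groups (lmFit, eBayes, 5 residual degrees of freedom) gave every comparison, adjusted by Benjamini-Hochberg over all tested probes at a threshold of 0.05. Precision is limited by the number of mice: the 95% interval of a member extended by a median of 0.19 to each side against control. Levels of different probes were not compared. The fit was also run on simulated data with independent noise, to check that shifts added there were returned by the estimates. Those data held no effect shared between arrays, so the check cannot speak to such effects.

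Members and lists were chosen with earlier results of these data known. Values array by array are given for members with an unadjusted p under 0.05 in any comparison and for Hspa5, Hsp90b1, Calr, Pdia4, Pdia6, Xbp1, Atf6, Ern1, Eif2ak3, Sec61a1 and Sec31a. Of the other ER genes, the 2 with the lowest p in each role are named, each by the probe and comparison with that p. Alternatives covered the background, normalization, filter, variance model, array weights, groups in the fit, replicate block, description number, probe choice and each array left out. Promoter sequences are those of RefSeq, build GRCm38.p6.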

Additional observations from a re-analysis of the deposited data

How the results depend on the processing

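The number of member probes past an adjusted p of 0.05 was 0 in each of the 4 comparisons under all alternatives by limma, with 3 to 8 higher at an unadjusted p under 0.05 after 10 days when no array was left out and 2 to 6 when 1 was. The median log2 change of members moved most with the local background column (0.071 after 10 days and 0.021 between the times) and the authors' deposited table (-0.041 after 1 day, 0.081 after 10 days and 0.15 between the times, where the medians of all probes were -0.055, 0.024 and 0.080). Leaving out 1 array gave 0.0025 to 0.034 after 1 day, 0.032 to 0.054 after 10 days, 0.023 to 0.044 between the times and 0.019 to 0.039 for both times against control. With the local background column the sign turned for Spcs1 after 1 day (-0.698) and for Pdia6 between the times (-0.0909), and the cause was not tested. With the replicate number as a block the medians were -0.0014, 0.029, 0.042 and 0.010 in the order above, with 0 calls. With that block 9 member probes were higher for both times against control at a limma unadjusted p under 0.05, where the main fit had 4. Hspa5 after 1 day was then 0.085 in place of 0.16. Same-numbered arrays of 7 pairs had deviations from the group means that correlated between -0.025 and 0.26, over 0.1 in 6 of 7. Of 8 arrays, 7 correlated best with an array of their own number, a hint from the data and not from the design. The deviations of the 2 controls from their mean are mirror images, so these pairs and arrays are not separate observations. The main fit did not use the numbers to pair the mice. Signal over background limits Ern1, Derl3 and Hyou1 most.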

Other observations

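Among the 80 further ER genes, several groups of partners had values not given above, none past the limma test with Benjamini-Hochberg adjustment (adjusted p = 1.0). Tmed9, a cargo receptor of vesicles between ER and Golgi, had a log2 change of -0.14 after 1 day (SE 0.04), with every 1-day array below both controls. Srp72, a subunit of the signal recognition particle, had -0.14 after 1 day (SE 0.06), also without overlap. Edem2, which trims glycoproteins before disposal, had 0.13 after 1 day (SE 0.05). Dnajc1, an Hsp40 protein of the ER membrane, had 0.12 after 10 days (SE 0.04) on its second probe. Its first probe overlapped with control, with log2 means of 8.16 in control and 8.25 after 10 days. Herpud2, a relative of Herpud1, and the first probe of Bet1, a SNARE of ER vesicles, were 0.11 (SE 0.04) and 0.099 (SE 0.04) higher after 10 days than after 1 day. The second Bet1 probe went the other way, with log2 means of 7.74 after 1 day and 7.72 after 10 days. Ppp1r15a, whose product Gadd34 reverses the translation block of Perk, had -0.19 after 1 day (SE 0.09) with groups that overlapped.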
